A study of Homo sapiens with 30 samples.

Results

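FaDu is an established line of squamous carcinoma cells from the hypopharynx. The 10 libraries described here, of 30 in the series, are the 5 labelled FaDu at pH 6.5 and the 5 labelled FaDu at pH 7.4. Total RNA of each was sequenced and reads were counted per gene. Both groups grew in DMEM with 10% fetal bovine serum, 10 mM glucose, 2 mM glutamine and 25 mM each of the buffers HEPES and PIPES, at 37 °C in 5% CO2, and they differed in the pH to which the medium was set. The pH 6.5 cells had lived at that pH for 1 month or longer, and no treatment other than the pH is named. The other 20 libraries are of 2 further established lines, the colon carcinoma HCT116 and the cervical squamous carcinoma SiHa. The labels do not say whether libraries of a group are separate cultures or how many populations were adapted, so p-values measure only the spread between these libraries. Values are normalised read counts, which are comparable between libraries of one gene and not between genes of different length.

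Tumours acidify their surroundings because glycolysis and respiration release lactate, protons and CO2 faster than these are carried away. Cells that live on at low pH keep their interior near neutral with proton-sensing receptors, bicarbonate transporters, carbonic anhydrases and proton pumps, and they shift the use of glucose, glutamine and fatty acids. ATF4, a transcription factor made when amino acids are short or the endoplasmic reticulum is stressed, drives amino acid synthesis and uptake and the hormone-like factors FGF21 and GDF15. Squamous cells also carry a choice between a basal, a differentiated and a mesenchymal state, in which keratins, adhesion proteins and matrix proteases change together.

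The line of each library was checked first. FaDu is known to lack SMAD4 (ENSG00000141646), which carries TGF-beta signals to the nucleus, and the gene was at 2.08, 0.694, 0.875, 3.13 and 0 in the pH 6.5 libraries and at 0 in pH 7.4 replicate 1. It stood at 1773, 675, 941 and 1484 in the libraries labelled pH 7.4 replicates 2 to 5, where the HCT116 mean was 2047. Of the 5 pH 7.4 libraries, replicate 1 was the only one at the level of the pH 6.5 libraries. A median over 88 genes restricted to HCT116 put their level in replicates 2 to 5 at 80.1%, 31.1%, 41.6% and 61.9% of that in HCT116. For 174 FaDu-restricted genes the median level in the same 4 libraries was 8.84%, 56.7%, 42.6% and 22.9% of replicate 1. In RNA from a mixture, fewer cells of a line and less RNA per cell cannot be told apart.

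**Figure D1:**
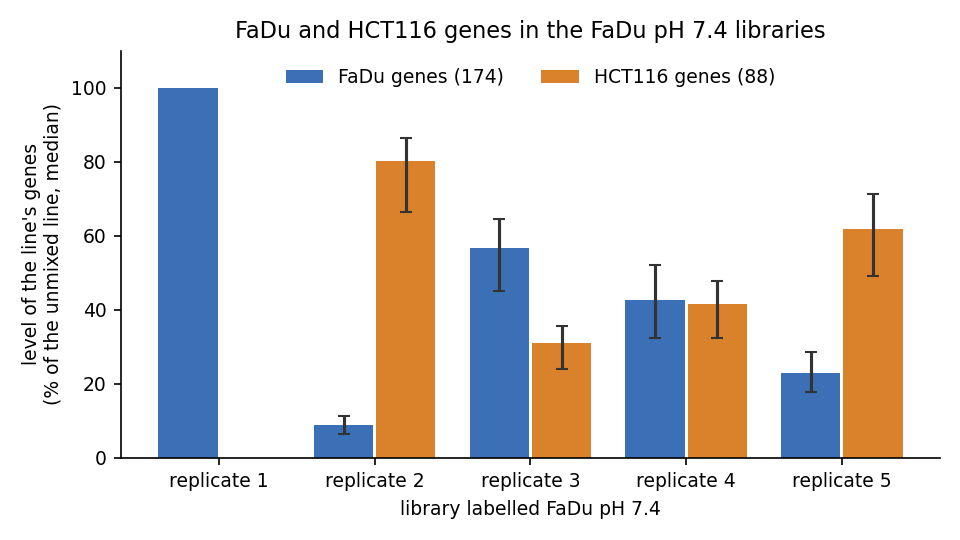
Level of genes restricted to FaDu (blue, 174 genes) and to HCT116 (orange, 88 genes) in the 5 libraries labelled FaDu pH 7.4, as a percentage of the level in the unmixed line. Bars are medians over genes and error bars quartiles; replicate 1 is the reference for FaDu and is set to 100% and 0%, while HCT116 genes reach 31.1% to 80.1% in replicates 2 to 5.

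All 12 squamous epithelium markers had a mean of at least 10 at pH 6.5 and in pH 7.4 replicate 1, with a summed level of 315404 to 487985 and of 560567. Of 13 colon epithelium markers, CDX1 and PHGR1 were at 0 in every pH 6.5 library, and CDX2, whose mean was 0.2 there, reached a mean of 460.1 in pH 7.4 replicates 2 to 5. CDX1 was also at 0 in every HCT116 library at pH 7.4. At pH 6.5, 5 of the 13 had a mean of at least 10. Among these EPHB2, MUC2 and HNF4G averaged 1531.5, 246.3 and 183.4, where HCT116 averaged 1550.2, 22.2 and 139.1, so not every colon marker separates the lines. The FaDu libraries held 31.6 to 55.7 M reads. Where a library is at 0, up to 3 reads remain possible, which is 1.90 to 3.31 normalised counts, for counting error only.

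The pH 6.5 libraries were not alike. For each of them, genes were taken that differed at least 4-fold between the other 4 and pH 7.4 replicate 1, and its place on the log2 distance between these was read. Replicate 1 at pH 6.5 lay a median of 50.6% of the way to pH 7.4 replicate 1 (quartiles 32.7% and 68.3%, 350 genes). It was displaced towards pH 7.4 in 335 of the 350 genes. Replicates 2 to 5 lay at −13.8%, −9.67%, −7.76% and −12.0%, which is on the far side of the other 4 libraries. These other 4 include replicate 1, which draws them towards pH 7.4, so values of this sign follow from the comparison. pH 6.5 replicate 1 thus stood midway between the groups for genes higher at pH 6.5 (47.8%) and for genes lower (51.8%). Results below are given with it, and without it where that matters.

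The FaDu part of the mixed pH 7.4 libraries offers a check that the choice of these genes did not use. After the fitted HCT116 part was taken off and the rest divided by the FaDu share, genes with little HCT116 expression lay a median of 98.0% of the way from pH 6.5 replicates 2 to 5 to pH 7.4 replicate 1 in replicate 3 (92 genes). The median was 99.6% in replicate 4 (78 genes), 107% in replicate 5 (52 genes) and 115% in replicate 2 (28 genes). The FaDu RNA in the mixed libraries was thus near the level of the unmixed pH 7.4 library for this set. In replicates 3, 4 and 5 genes higher at pH 6.5 lay at 113%, 123% and 127%, and genes lower at pH 6.5 at 92.3%, 93.6% and 94.8%. In replicate 2, which has the smallest FaDu share, both lay beyond 100%, at 208% (5 genes) and 108% (23 genes).

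**Figure D2:**
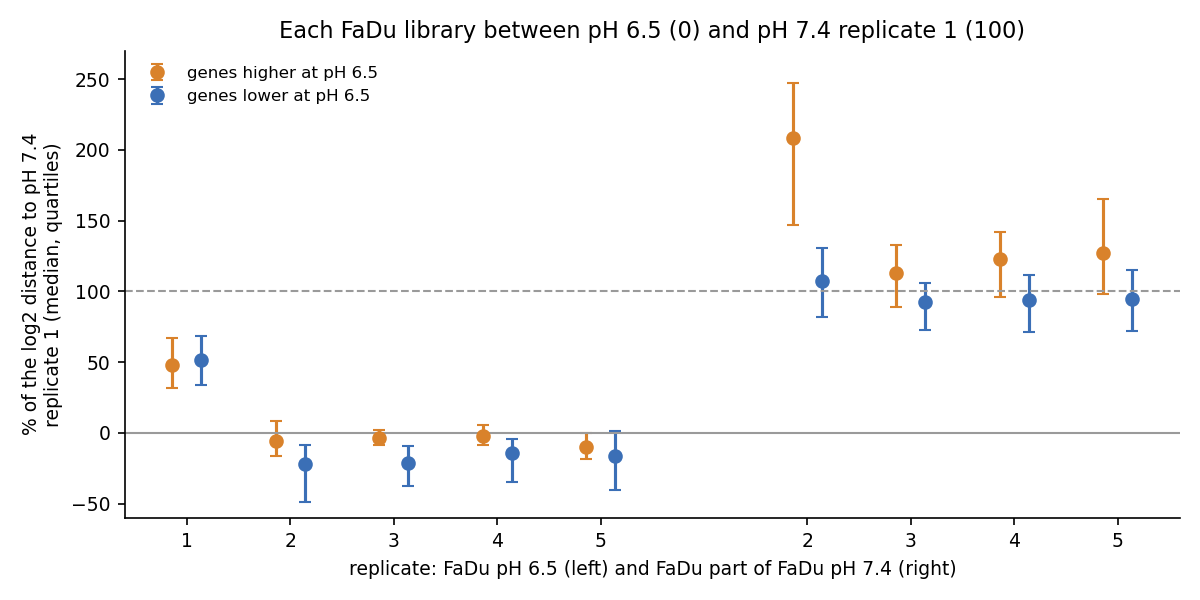
Place of each FaDu library on the log2 distance from the pH 6.5 mean (0%) to pH 7.4 replicate 1 (100%), as median and quartiles over genes at least 4-fold apart, for genes higher (orange) and lower (blue) at pH 6.5. A pH 6.5 library is set against the other 4; pH 6.5 replicate 1 lies near 50%, the other pH 6.5 libraries at or below 0%, and the FaDu part of the mixed pH 7.4 libraries near 100%, with 5 genes behind the highest point.

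Each gene was then compared over 5 against 5 libraries. Its value in a mixed library was shifted by the level expected if pH changed nothing at the fitted shares, and limma compared the log2 values (pseudocount 1, so differences of low genes are understated). A gene was called where the Benjamini-Hochberg adjusted p was under 0.05 and pH 7.4 replicate 1 lay outside the range of the 5 pH 6.5 libraries on the same side. Of 19170 genes tested, 723 (3.77%) rose at pH 6.5 and 2518 (13.1%) fell. Under each of 6 settings of the shares and the scaling, 484 of these (2.52%) rose and 829 (4.32%) fell. With libraries as labelled, 4715 genes (24.6%) were significantly higher and 3764 (19.6%) lower, of which 676 and 1173 were also called after the correction.

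The balance of rises and falls depended on the shares and the scaling. In each mixed library the fitted FaDu and HCT116 shares together fell short of the whole. With the FaDu share as 1 minus the HCT116 share the balance reversed, to 2007 rises and 960 falls. The median corrected difference over all genes was −0.11 (log2), and centring each library on its median gave 1158 rises (6.04%) and 1403 falls (7.32%). Against pH 7.4 replicate 1 alone, 812 genes (4.24%) rose and 599 (3.12%) fell. That library lay below all 5 pH 6.5 libraries in 5227 genes (27.3%) and above them in 5713 (29.8%). Without pH 6.5 replicate 1, which lay midway, 1227 genes (6.36%) rose and 3627 (18.8%) fell. Without pH 7.4 replicate 1, whose agreement was then not asked, 908 (4.74%) rose and 3411 (17.8%) fell. Without pH 6.5 replicate 3 the rises numbered 481, and without pH 7.4 replicate 4 the falls numbered 1654. Of the 484 and 829 genes called under all 6 settings, 479 and 829 were also called without pH 6.5 replicate 1, and 472 and 829 with the HCT116 profile as the median of its libraries. Every HCT116 library at pH 7.4 lay above the unmixed FaDu libraries for 50 of the 723 rises, and below them for 925 of the 2518 falls, so that added HCT116 RNA would move the mixed libraries against the called direction. Where HCT116 holds little of a gene, the mixing alone lowers the mixed libraries. A lack of overlap as measured is then no evidence of a rise. Below, a gene is described as called under all 6 settings where that holds, and every difference is log2 of pH 6.5 over pH 7.4, share-corrected, with its SE. The correction sets this difference to 0 where pH changes nothing, but it leaves the HCT116 RNA in the mixed values. Where HCT116 expresses a gene and the fitted mixture holds, the difference therefore understates the change in FaDu.

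**Figure D3:**
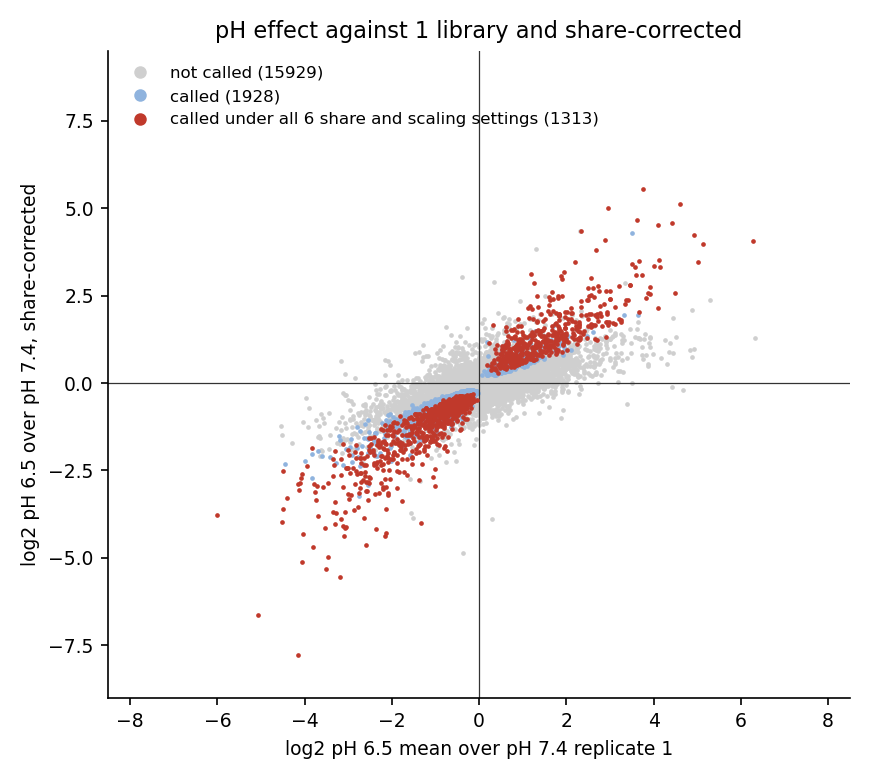
Log2 difference of every tested gene, share-corrected (vertical axis) against the difference from pH 7.4 replicate 1 alone (horizontal axis). Grey points are 15929 genes not called, pale blue 1928 called and red 1313 called under all 6 share and scaling settings; both measures share the pH 6.5 libraries and replicate 1.

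The largest rises were in genes of different kinds. DIO2 (ENSG00000211448), the deiodinase that converts thyroxine to the active thyroid hormone, held 1753, 3193, 3509.8, 2831 and 4045 in the 5 pH 6.5 libraries and 247 in pH 7.4 replicate 1. The mixed libraries held 6.84, 73.6, 54.1 and 12.8, against 283, 1743, 1313 and 713 expected with no change. All 5 pH 7.4 libraries lay below all 5 at pH 6.5, as did the levels expected with no change. The difference was 4.67 ± 0.33 (limma adjusted p = 3.69e-05). MYL7 (ENSG00000106631), the myosin light chain of the heart atrium, held 93.7, 207, 283, 235 and 241 at pH 6.5, 7.69 in replicate 1 and at most 1.48 in the mixed libraries. It is a muscle gene in a line of epithelial origin, and it rose by 5.10 ± 0.39 (adjusted p = 4.55e-05). H19 (ENSG00000130600), an imprinted long noncoding RNA, held 16165, 123424, 65865, 67678 and 98085 at pH 6.5, 9496 in replicate 1 and 133, 722, 435 and 325 in the mixed libraries. Its groups did not overlap, although pH 6.5 replicate 1 was far below the rest of its group, and the difference was 5.01 ± 0.63 (adjusted p = 0.000555).

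KRT13 (ENSG00000171401), a keratin of the upper layers of mucosal squamous epithelium, held 1112, 13497, 5664, 4901 and 7410.4 at pH 6.5 and 369 in replicate 1. Its mixed libraries, at 136, 157, 173 and 229.8, were lower still, and it rose by 3.33 ± 0.57 (adjusted p = 0.00273). MATK, a kinase that restrains Src family kinases, held 124 to 189.8 at pH 6.5 against 4.39 in replicate 1, a rise of 4.22 ± 0.35. TMEM52B, a membrane protein, held 247 to 1025 against 57.1, and rose by 5.55 ± 0.55. Both were higher in every pH 6.5 library than in any at pH 7.4. CCDC80, a secreted matrix protein, ran from 1097 in pH 6.5 replicate 1 to 17316 against 555, a rise of 4.52 ± 0.62. CCN5, a matricellular protein, rose by 3.32 ± 0.46 from 19.8 in replicate 1 to 94.7 to 332. The thiamine transporter SLC19A3 rose by 3.50 ± 0.30, the transcription cofactor LBH by 3.08 ± 0.42, PALMD, a membrane-associated protein, by 3.50 ± 0.45, and MIR9-3HG, the host transcript of a miR-9 gene, by 4.58 ± 0.37. These 12 genes were called under all 6 settings, with adjusted p from 3.69e-05 to 0.00273.

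The largest falls included adhesion, matrix and mucosal genes. CDH11 (ENSG00000140937), a cadherin of mesenchymal cells, held 219, 0, 3.50, 0 and 1.10 at pH 6.5 and 806 in pH 7.4 replicate 1. HCT116 lacks it, with a mean of 0, so its 112, 428, 571 and 311 in the mixed libraries came to 1261, 754, 1339 and 1354 when divided by the fitted FaDu shares. Replicate 1 at pH 6.5 held 219, above mixed replicate 2 as measured, and the other 4 were at or near 0. The difference was −7.77 ± 1.19 (limma adjusted p = 0.00151). DMBT1 (ENSG00000187908), a mucosal scavenger receptor glycoprotein, held 495, 4.86, 42.0, 59.5 and 68.5 at pH 6.5 against 4516 and, in the mixed libraries, 533, 4399.6, 3913 and 2708. The lowest mixed library still lay above the highest at pH 6.5, and the difference was −6.65 ± 0.87, negative for a lower level at pH 6.5 (adjusted p = 0.000667). MMP3, a matrix protease also called stromelysin, held 128, 3.47, 3.50, 14.6 and 4.42 at pH 6.5, 362 in replicate 1 and 99.2, 213, 191 and 114 in the mixed libraries. Its pH 6.5 replicate 1 lay among the mixed libraries, so the groups overlapped as measured, and the corrected difference was −5.32 ± 0.78 (adjusted p = 0.00129).

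DPYSL3, a cytoskeletal regulator known from growing axons, held 1680.3, 56.9, 69.1, 77.3 and 47.5 at pH 6.5 against 6406, a difference of −4.31 ± 0.88. All 5 lay below every pH 7.4 library, and pH 6.5 replicate 1 again stood between the rest. DPYSL3 was not called by edgeR's count test with the deposited scaling. Its mixed replicate 4, at 7115, exceeded both replicate 1 and the highest HCT116 library, at 1990, which no mixture of these levels gives. NCAM1, a neural adhesion molecule, was at 0 to 14.6 at pH 6.5 and at 277 in replicate 1. GHR, the growth hormone receptor, was at 1.75 to 40.6 against 168. HKDC1, a hexokinase family member, was at 2.08 to 17.7 against 111, and reached 346 to 679 in the mixed libraries where 21.8 to 44.2 was expected. It was above expectation in every mixed library, with a difference of −4.15 ± 0.43. All mixed libraries also exceeded replicate 1 and the highest HCT116 library, at 72.3, which no mixture of these levels gives. ALPP, placental alkaline phosphatase, differed by −3.36 ± 0.33, with 1174 in replicate 1 against 45.5 to 127, and reads of a near-identical copy may be counted with it. Its mixed replicate 5, at 1848, likewise exceeded replicate 1 and the highest HCT116 library, at 316. COL5A3, a chain of collagen V, differed by −4.68 ± 0.62, the chromodomain gene CDYL2 by −4.98 ± 0.73, the developmental cofactor EYA1 by −3.68 ± 0.71, and the lipase relative PNLIPRP3 by −3.59 ± 0.85. All 12 were called under all 6 settings, with adjusted p up to 0.0148 for NCAM1. As measured, pH 6.5 replicate 1 overlapped the mixed libraries in CDH11, MMP3, GHR, CDYL2, EYA1 and PNLIPRP3.

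**Figure D4:**
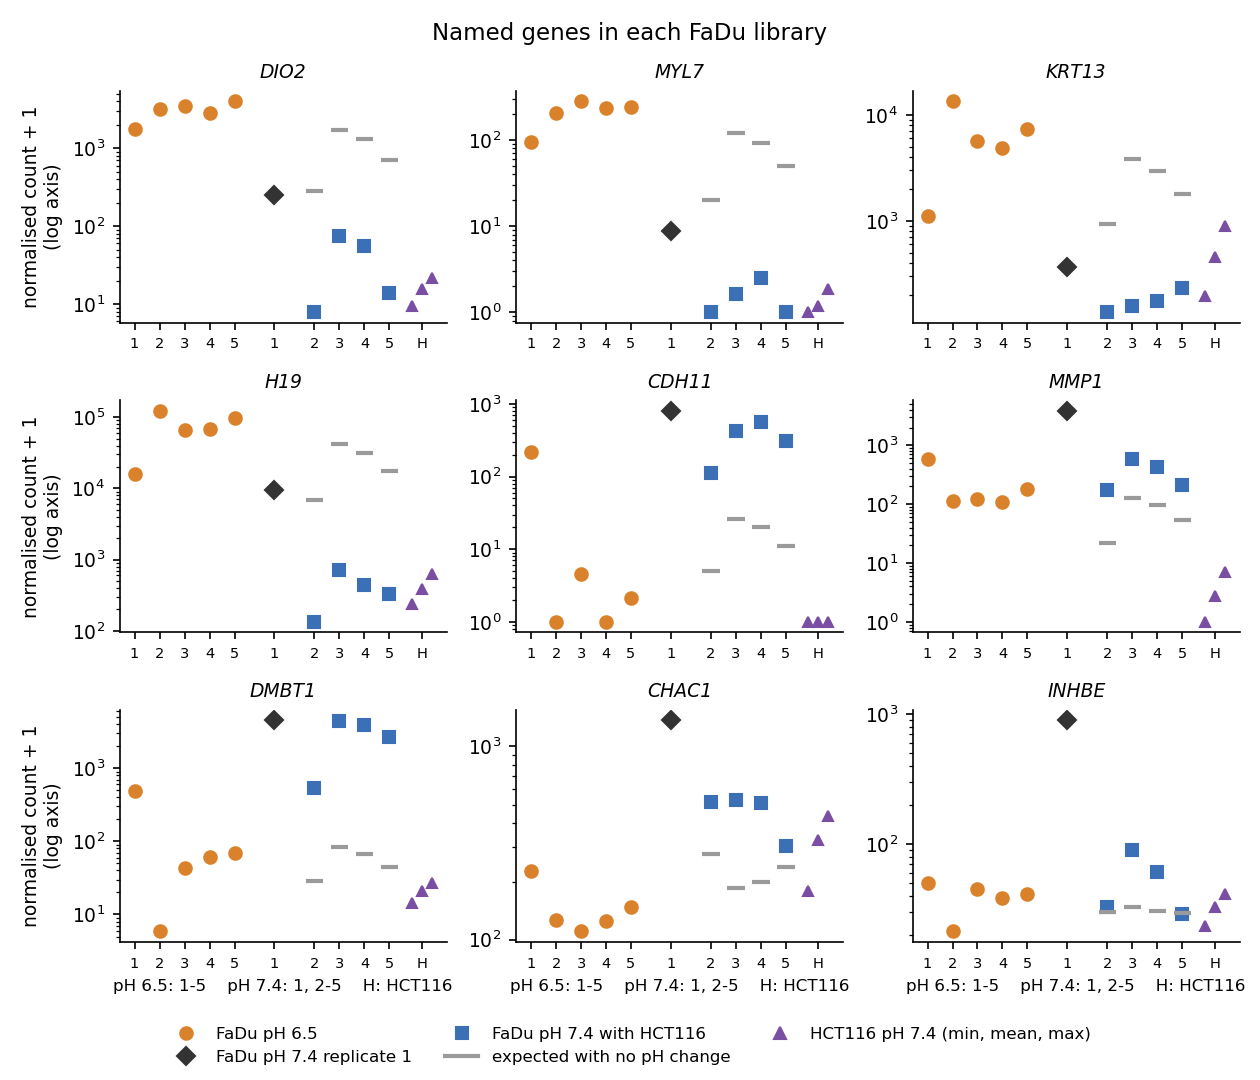
Normalised count plus 1 (log axis) of 9 genes in each FaDu library: pH 6.5 replicates 1 to 5 (orange circles), pH 7.4 replicate 1 (black diamond) and the mixed pH 7.4 replicates 2 to 5 (blue squares) with the level expected if pH changed nothing (grey bars). Purple triangles are the lowest, mean and highest HCT116 library at pH 7.4; DIO2, MYL7, KRT13 and H19 lie below expectation in all 4 mixed libraries and CDH11, MMP1 and DMBT1 above it, while INHBE is near it in replicates 2 and 5.

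The series' interest in signals from acid-adapted tumours to other tissues was followed in a list of secreted factors linked to wasting and to fat breakdown. Of 37 tested, 4 rose and 12 fell (10.8% and 32.4%, against 3.77% and 13.1% of all genes tested), 3 and 4 of them under all 6 settings, as did 2.52% and 4.32% of all genes. The shares of the lists below are to be read against the same 4 values. Counts with a library left out or libraries centred are to be read against all genes in that setting. Without pH 6.5 replicate 1, 6.36% of all genes rose and 18.8% fell. Without pH 7.4 replicate 1 the shares were 4.74% and 17.8%, and with libraries centred 6.04% and 7.32%. The falls numbered 9 to 16 with 1 library left out. STC2 (ENSG00000113739), a secreted glycoprotein that restrains growth factor release, held 2536, 1057, 791, 1088 and 1044 at pH 6.5 and 12898 in pH 7.4 replicate 1. HCT116 also makes it, at a mean of 1627, and the mixed libraries held 2849, 4799.9, 4635 and 2452 against 1418, 1245, 1232 and 1306 expected. Every mixed library exceeded its expectation, and STC2 fell, with a difference of −1.94 ± 0.42 (limma adjusted p = 0.00839). VEGFA, the main growth factor for blood vessels, held 5055, 3407, 4046, 4344 and 6084 at pH 6.5 against 20083 in replicate 1 and 4298, 12428, 9526 and 7260.3 in the mixed libraries, a difference of −1.48 ± 0.25 (adjusted p = 0.00286). WNT5A, a ligand of noncanonical Wnt signalling, was at 0 to 11.5 at pH 6.5 against 96.7, and differed by −3.97 ± 0.68. CCL2, the monocyte chemokine, stood at 19.8 in replicate 1 and at 3.47 to 15.6 at pH 6.5 (−1.77 ± 0.48), and its call was lost without pH 6.5 replicate 3 or without pH 7.4 replicate 3, 4 or 5.

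CSF1 (ENSG00000184371), the macrophage growth factor, varied little between the pH 6.5 libraries. It held 1548, 1509, 1671, 1685 and 1860.1 at pH 6.5, 504 in replicate 1 and 125, 331, 231 and 143 in the mixed libraries. No library of one pH reached the range of the other, but the mixed libraries were expected below that of pH 6.5 with no change, at 199, 959, 732 and 420. The difference was 1.42 ± 0.17 (limma adjusted p = 0.000493). IGFBP3, which binds insulin-like growth factors, held 5426, 19423, 8075, 8088 and 12874 at pH 6.5 against 3512, and rose by 2.38 ± 0.35 (adjusted p = 0.00125). ADM, adrenomedullin, a vessel-dilating peptide known to promote fat breakdown, held 1179.5, 2189, 1441, 1053 and 1957 against 558, and rose by 1.16 ± 0.20 (adjusted p = 0.00317). Its mixed libraries held 389, 382, 519 and 394. With the fitted HCT116 part taken off, replicates 2 and 5 came to −2837 and −437, which cannot be real levels. The same held for GADD45A, given below, at −7329 and −316. In replicate 2 it also held for ARRDC4, at −873, and for GBP2, CPT1C and H19 among others. TGFB2, a TGF-beta ligand, rose by 1.33 ± 0.30, with 141 in replicate 1 against 256 to 739, but not under all 6 settings.

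Further falls in this list did not pass all 6 settings. STC1, the sister of STC2, stood at 279 in replicate 1 and at 15.3 to 122 at pH 6.5 (−3.22 ± 0.48). PTHLH, the parathyroid hormone-related protein known from cancer cachexia, stood at 232 and at 30.5 to 99.9 (−1.85 ± 0.26). FGF21, a hormone of fasting metabolism, stood at 60.4 and at 0 to 3.12 (−2.30 ± 0.69), the latter at or near the limit that a count of 0 allows. The call of FGF21 was lost without any 1 of pH 6.5 replicates 2 to 5 or of pH 7.4 replicates 3 and 4. IL1A (−1.44 ± 0.31), IGFBP6 (−1.12 ± 0.19), GDF11 (−0.88 ± 0.18), PDGFA (−0.47 ± 0.09) and BMP7 (−0.33 ± 0.10), which are cytokines, growth factors and a binding protein, also fell. The call of BMP7 was lost without any 1 of 6 libraries.

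The ATF4 response held the largest share of falls among the lists with 10 or more genes. Of its 50 members, 31 fell and none rose, against 13.1% and 3.77% of all genes tested, and 10 of the 31 fell under all 6 settings. The count of falls was 21 to 33 with 1 library left out, and 16 with libraries centred. The median difference was −0.63 over the list against −0.11 over all genes, and −1.01 against 0.01 when only pH 7.4 replicate 1 was used. The falls under all 6 settings cover serine and one-carbon enzymes (PSAT1, PSPH, SHMT2, ALDH1L2), amino acid carriers (SLC7A11, SLC7A1, SLC1A4, SLC1A5), STC2 and the lipoprotein receptor VLDLR. ATF4 itself and the aminoacyl-tRNA synthetases AARS1, GARS1, WARS1, MARS1, TARS1 and CARS1 also fell, but not in all settings.

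VLDLR (ENSG00000147852) held 222, 164, 145, 175 and 106 at pH 6.5, 554 in replicate 1 and 52.0, 289, 257 and 126 in the mixed libraries, where 17.4, 93.3, 70.8 and 39.6 was expected. Each mixed library lay above its expectation, and the difference was −1.72 ± 0.17 (limma adjusted p = 0.000139). SLC7A11, the cystine importer, held 2945, 3237, 2826, 2781 and 3269 against 7312, a difference of −0.94 ± 0.12 (adjusted p = 0.000555). CHAC1 (ENSG00000128965), an enzyme that breaks down glutathione, held 227, 125, 109, 124 and 147 against 1363 in replicate 1, and 512, 529, 512 and 306 in the mixed libraries against 275, 185, 199 and 236 expected. It differed by −1.52 ± 0.42 (adjusted p = 0.0262), but was not called in all settings, and its call was lost without any 1 of pH 6.5 replicates 3 to 5 or pH 7.4 replicates 3 and 4.

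Not every target with a high level in replicate 1 could be called. INHBE, an activin subunit, stood at 899.6 in replicate 1 and at 48.9, 20.1, 43.7, 37.6 and 39.8 at pH 6.5, while the mixed libraries held 31.5, 88.2, 59.3 and 27.6 against 28.7, 31.4, 29.3 and 28.3 expected with no change. NUPR1, a stress-induced chromatin protein, stood at 1799 in replicate 1 against 148, 136, 173, 126 and 246, and its mixed libraries held 41.1, 99.6, 79.3 and 36.5 against 23.5, 97.5, 75.3 and 44.9. Their differences were −1.47 ± 0.70 (limma adjusted p = 0.162) and −0.85 ± 0.58 (adjusted p = 0.329), and neither passed. These 2 genes were chosen after their values were seen. For them the large gap rests on 1 library.

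ATF4 binds DNA with C/EBP proteins at a composite element with the letters TGATGNAA. The 250 bases before the start sites of the called members, as RefSeq gives them on GRCh38.p14, were searched for it on both strands, first for the 3 of largest size and then, after the values were seen, for all 31. Windows were found for 27 of the 31, and 7 of their 44 windows (15.9%) held a match, against 1104 of all 35116 windows (3.14%). The list is known for this element, so a higher share follows from the choice of the list and says nothing about the calls. Members that were not called were not set beside them. Matches stood before the starts of 7 genes, shown here with 11 bases on either side where the window allows, because they let the shared letters be compared. Capitals mark the match, in the direction of the gene, so that TTNCATCA is a match on the other strand.

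AARS1: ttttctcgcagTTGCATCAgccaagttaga
ASNS: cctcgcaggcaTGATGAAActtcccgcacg
CHAC1: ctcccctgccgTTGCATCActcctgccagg
FGF21: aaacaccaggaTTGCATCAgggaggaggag
GARS1: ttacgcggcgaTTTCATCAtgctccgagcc
JDP2: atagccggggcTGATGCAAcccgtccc
SLC1A5: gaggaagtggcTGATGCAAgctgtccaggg

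The match began 187 bases before the start of AARS1, 68 before that of ASNS, 209 before CHAC1, 54 before FGF21, 33 before GARS1, 16 before JDP2 and 97 before SLC1A5. The called members of largest size were FGF21, STC2 and VLDLR. The FGF21 window, chr19:48755274-48755523 on the plus strand, carried the 1 match among these and is shown whole because FGF21 is the secreted member of the list that fell most.

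FGF21 window: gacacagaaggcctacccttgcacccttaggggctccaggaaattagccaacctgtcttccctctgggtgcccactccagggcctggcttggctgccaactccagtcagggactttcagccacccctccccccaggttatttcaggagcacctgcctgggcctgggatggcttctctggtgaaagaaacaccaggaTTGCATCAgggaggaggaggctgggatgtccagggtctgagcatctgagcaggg

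No match stood in the windows of STC2 (chr5:173328415-173328664, minus strand) and VLDLR (chr9:2621537-2621786, plus strand). These letters describe the windows only, and no binding was measured.

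The list of endoplasmic reticulum chaperones and degradation factors covers the proteins that fold, modify or dispose of secreted proteins. Of 40 members, 22 fell (55%, against 13.1% of all genes tested) and none rose. Under all 6 settings 3 fell, where 4.32% of all genes did. The count of falls was 11 to 26 with 1 library left out, lowest without pH 7.4 replicate 4, and 9 with libraries centred. HYOU1, a chaperone induced by low oxygen and stress, held 8387, 3417, 4232, 4666 and 3505 at pH 6.5, 19988 in replicate 1 and 9274, 10246, 10413 and 9497 in the mixed libraries. All pH 7.4 libraries were above all at pH 6.5, and the difference was −1.22 ± 0.28 (limma adjusted p = 0.0101). P4HB, a protein disulfide isomerase, held 11223 to 23272 against 34703, a difference of −0.91 ± 0.19. CREB3L2, a membrane-bound transcription factor of secretory cells, held 351 to 561 against 864, a difference of −0.89 ± 0.12. Its mixed libraries held 2014, 1377, 1423 and 1601. Replicates 2 and 5 among them exceeded both replicate 1 and the highest HCT116 library, at 1447, which no mixture of these levels gives. CRELD2, a chaperone-like secreted protein, stood at 18426 in replicate 1 against 3424 to 6438, but at 1801, 4032, 3800.3 and 2598 in the mixed libraries against 1290.2, 2811, 2319 and 1696 expected, and its difference of −0.92 ± 0.28 did not hold in all settings and was lost without any 1 of 7 libraries.

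Of 23 genes of fatty acid synthesis and desaturation, 9 fell (39.1%, against 13.1% of all genes) and none rose, 4 of the falls under all 6 settings, with 6 to 12 falls when 1 library was left out and 5 falls and 2 rises with libraries centred. FASN (ENSG00000169710), fatty acid synthase, held 55082, 44668, 43034, 36653 and 41987 at pH 6.5, 90461 in replicate 1 and 166035, 121804, 141633 and 124751 in the mixed libraries. HCT116 holds more of it, at 132123, so 109750.0, 66179, 73815 and 91930.5 was expected there, and the excess over this in every mixed library gave a difference of −0.79 ± 0.14 (limma adjusted p = 0.00276). SREBF1, the transcription factor that drives fatty acid synthesis, held 11984, 15116, 12752, 10849 and 12625 against 23857, a difference of −0.75 ± 0.11 (adjusted p = 0.00101). SCD, the stearoyl-CoA desaturase, held 29731 to 43155 against 52659, a difference of −0.58 ± 0.11. FADS1, a desaturase of long fatty acids, fell under all 6 settings as well. ACLY, which makes cytosolic acetyl-CoA from citrate, differed by −0.56 ± 0.14 and was not called in all settings.

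Of 27 genes of cholesterol synthesis and uptake, 8 fell (29.6%, against 13.1%) and none rose, 1 of the falls under all 6 settings, between 3 and 8 with 1 library left out and 3 with libraries centred. INSIG1 and INSIG2, which hold the sterol sensor in the endoplasmic reticulum, differed by −0.45 ± 0.12 and −0.51 ± 0.15 (limma adjusted p = 0.0179 and 0.0291). The call of INSIG1 was lost without pH 7.4 replicate 4, and that of INSIG2 without any 1 of pH 6.5 replicates 2 to 5 or pH 7.4 replicates 3 and 4. SREBF2, the transcription factor of cholesterol synthesis, differed by −0.39 ± 0.07.

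Among 21 genes of fatty acid uptake and activation, 1 rose and 4 fell (4.76% and 19%, against 3.77% and 13.1%). OLR1 (ENSG00000173391), a scavenger receptor for oxidised LDL, held 1943, 3283, 3323, 2847 and 3823 at pH 6.5, 599 in replicate 1 and 2.74, 95.8, 62.3 and 22.7 in the mixed libraries, where 269, 1726, 1298 and 698 was expected. Its groups lay apart, as the levels expected with no change would also have done, and the rise was 4.35 ± 0.53 (limma adjusted p = 0.000463). The fatty acid transport protein SLC27A1 differed by −0.58 ± 0.10 and fell under all 6 settings, as did VLDLR. The acyl-CoA synthetase ACSL4 differed by −0.54 ± 0.14 and was not called in all settings or without pH 7.4 replicate 3 or 4. Among 25 genes of lipid droplets and triglyceride turnover, 7 fell (28%, against 13.1%) and none rose, 4 to 9 with 1 library left out, most without pH 7.4 replicate 1, and 3 with libraries centred. DGAT2, which completes triglycerides, held 35.4 to 50.0 against 74.7 and 191 to 246 in the mixed libraries, a difference of −0.91 ± 0.17, and was the only one under all 6 settings. ABHD5, the activator of triglyceride lipase, held 290.5 to 389 against 715 (−0.52 ± 0.16), and its call was lost with libraries centred and without any 1 of pH 6.5 replicates 2 to 5 or pH 7.4 replicates 3 and 4. The lipid droplet list's median was −0.01, and 0.10 with libraries centred.

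Of 33 fatty acid oxidation genes, 2 rose and 2 fell (6.06% each, against 3.77% and 13.1%), and 9 rose and 2 fell with libraries centred. CPT1C, a brain-type carnitine palmitoyltransferase, held 193, 210.3, 279.9, 262 and 201 against 64.8, rose by 0.93 ± 0.24 (limma adjusted p = 0.0193) and was the 1 call under all 6 settings, lost without pH 7.4 replicate 4. DECR1, an oxidation enzyme, and PPARA, the transcription factor of fasting, differed by −0.45 ± 0.10 and −0.44 ± 0.08. The respiratory chain gave 1 rise and 1 fall among 51 genes (1.96% each). NDUFV1, a catalytic subunit of complex I, held 23171, 20008, 22769.8, 22929 and 20274 against 11094 and 3999.8, 7764, 7135 and 5334 in the mixed libraries, a rise of 0.58 ± 0.13 (adjusted p = 0.0111). It lay below 4506, 13379, 10643 and 6999 expected in every mixed library. Without pH 6.5 replicate 1, 7 of the 51 respiratory chain genes fell, where 18.8% of all genes did.

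Among 28 genes of glycolysis and lactate, 1 rose and 4 fell (3.57% and 14.3%), which is near the 3.77% and 13.1% of all genes tested. The falls numbered 12 without pH 6.5 replicate 1 and 2 without any 1 of pH 6.5 replicates 3 and 4 or pH 7.4 replicates 3 and 4. PKM, pyruvate kinase, held 79299, 33681, 39026, 40565 and 34522 at pH 6.5, 115422 in replicate 1 and 143847, 118287, 138193 and 137755 in the mixed libraries, a difference of −1.05 ± 0.22 (limma adjusted p = 0.00684). SLC2A1, the glucose transporter GLUT1, held 15316, 11073, 10223, 11006 and 10721 against 22371, a difference of −0.89 ± 0.12 (adjusted p = 0.000762). Both fell under all 6 settings. GAPDH differed by −0.58 ± 0.16 and the neuronal enolase ENO2 by 0.47 ± 0.14, and neither was called in all settings. The call of GAPDH was lost without any 1 of 4 libraries and that of ENO2 without any 1 of 8.

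Of 36 genes of the tricarboxylic acid cycle and glutamine use, 2 rose and 11 fell (5.56% and 30.6%, against 3.77% and 13.1%), 2 and 4 of them under all 6 settings. IDH2 (ENSG00000182054), the mitochondrial isocitrate dehydrogenase that yields NADPH, held 6859, 7626, 9208, 9363 and 6969.7 at pH 6.5, 924 in replicate 1 and 1531, 1175, 1268 and 1401 in the mixed libraries. The lowest pH 6.5 library was over 4 times the highest at pH 7.4, and the rise was 1.68 ± 0.38 (limma adjusted p = 0.00986). HCT116 averaged 1761, which stays in the mixed values, and against replicate 1 alone the difference was 3.11. Its cytosolic counterpart IDH1 moved the other way, with 6179, 4984, 5256, 4689 and 4936 against 11068 and a difference of −0.80 ± 0.10 (adjusted p = 0.000663). GLS2, the liver-type glutaminase, rose under all 6 settings. The glutamine carrier SLC1A5 and the succinyl-CoA ligase subunit SUCLA2 fell under all 6. PCK2, mitochondrial phosphoenolpyruvate carboxykinase and an ATF4 target, stood at 4019 in replicate 1 and at 947 to 1350.3 at pH 6.5 (−1.02 ± 0.21).

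Genes of pH regulation were mostly not called. Of 29 tested, 2 rose (6.90%, against 3.77% of all genes tested) and 4 fell (13.8%, against 13.1%), 1 and 2 of them under all 6 settings. KCNK5, a potassium channel opened by alkaline pH, held 776, 373, 510.0, 520.1 and 496 against 802 and 1107 to 1468 in the mixed libraries, a difference of −0.82 ± 0.17 (limma adjusted p = 0.00698). The anion exchanger SLC4A2 also fell under all 6 settings. The carbonic anhydrase CA13 and its inactive relative CA11 differed by −0.87 ± 0.25 and 0.59 ± 0.19, each lost without any 1 of 7 libraries.

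In the lysosome, 5 genes of 64 rose and 15 fell (7.81% and 23.4%, against 3.77% and 13.1%), 3 and 3 under all 6 settings. CTSF (ENSG00000174080), a lysosomal cysteine protease, held 233, 586, 566, 550.4 and 621 at pH 6.5, 85.7 in replicate 1 and 3.42, 36.2, 21.5 and 11.8 in the mixed libraries. Expected levels there were 45.6, 290.0, 218 and 118, and the rise was 3.0 ± 0.26 (limma adjusted p = 5.84e-05). ATP6V1B1, a proton pump subunit of acid-secreting kidney cells, held 129, 352, 236, 213 and 384 against 122, a rise of 0.99 ± 0.31 that was lost without any 1 of 7 libraries. The protease CTSS rose and the protease CTSB and the sulfatase ARSB fell under all 6 settings. MITF, a transcription factor related to lysosome regulators, rose by 1.07 ± 0.29 and GM2A, a ganglioside carrier, differed by −1.03 ± 0.21, neither in all settings, and the call of MITF was lost without any 1 of 4 libraries.

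Targets of hypoxia-inducible factors gave 1 rise and 11 falls among 38 (2.63% and 28.9%, against 3.77% and 13.1%), 1 and 4 of them under all 6 settings. ADM was the rise, and STC2, VEGFA and SLC2A1, given above, fell with the membrane protein TMEM45A. The count of falls was 7 to 15 with 1 library left out, and 7 with libraries centred. Among 37 NRF2 targets and glutathione genes, 2 rose and 10 fell (5.41% and 27%), 3 each with libraries centred, and 5 fell without pH 6.5 replicate 3 or 4 or pH 7.4 replicate 4. GSTM3, a glutathione transferase, held 71.8, 79.1, 121, 87.7 and 98.3 at pH 6.5, 49.4 in replicate 1 and 2.74, 22.8, 17.1 and 1.97 in the mixed libraries, a rise of 1.45 ± 0.34 (limma adjusted p = 0.011). With SLC7A11 it was called under all 6 settings. Carbonyl reductase CBR1 and glutathione peroxidase GPX2 differed by −0.82 ± 0.15 and −0.67 ± 0.20, and with libraries as labelled they changed sign. The call of GPX2 was also lost without any 1 of 5 libraries.

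Epithelial-mesenchymal transition is the change of epithelial cells towards loose, motile cells, led by the factors SNAI2, TWIST1 and ZEB1. Of 38 genes, 14 fell and 2 rose (36.8% and 5.26%, against 13.1% and 3.77%), and 10 of the falls (CDH11, MMP2, MMP3, MMP14, PRRX1, TWIST1, TWIST2, SNAI2, LOXL2, FN1) passed all 6, against 4.32% of all genes. The falls numbered 12 to 17 with 1 library left out. MMP2 (ENSG00000087245), a gelatinase, held 117, 22.2, 18.4, 19.8 and 11 at pH 6.5, 336 in replicate 1 and 93.7, 263, 222 and 135 in the mixed libraries. Its pH 6.5 replicate 1 lay above the lowest mixed library, which has the smallest FaDu share, and the difference was −4.09 ± 0.48 (limma adjusted p = 0.000392). PRRX1, a transcription factor of mesenchyme, held 10.4, 2.78, 1.75, 1.04 and 1.10 against 33.0, a difference of −3.20 ± 0.46 (adjusted p = 0.00115). The 2 rises, of OVOL1, a transcription factor known to hold the epithelial state, and of TAGLN, an actin-binding protein, did not pass all 6 settings. OVOL2, the relative of OVOL1, was among the falls, as were ZEB1, ITGA5 and ITGAV, also not in all settings. CDH1, the epithelial cadherin, held 5300.1, 8668, 7446, 7200.1 and 7931 at pH 6.5 and 5589.9 in replicate 1, a difference of 0.35 ± 0.13 (adjusted p = 0.0883) that did not pass.

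VIM, the mesenchymal filament protein, was low throughout, at 44.8, 2.08, 3.50, 3.13 and 4.42 at pH 6.5 and 36.2 in replicate 1. It was higher in the mixed libraries, at 75.9, 69.2, 61.5 and 53.3, than in replicate 1 or in the HCT116 mean of 5.25, and it was not called because pH 6.5 replicate 1 exceeded replicate 1 at pH 7.4. COL3A1, a fibrillar collagen, shows a limit of the HCT116 profile. HCT116 libraries averaged 51.2, so 41.1, 16.7, 21.9 and 32.0 was expected in the mixed libraries, which held 1.37, 1.27, 0 and 2.96. VIM, COL3A1 and CDH1 were chosen after their values were seen.

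Markers of cell types that a carcinoma line should lack were read beside these lists. Among 10 fibroblast markers LUM was at 0 in all FaDu libraries, and only COL1A1 and ACTA2 reached a mean of 10 at either pH. The summed level of the 10 was 488 to 676 at pH 6.5, 419.6 in pH 7.4 replicate 1 and 651 to 1045 in the mixed libraries, and their part in the mesenchymal falls was not tested. CDH5 (ENSG00000179776), the cadherin of vessel lining cells, stood out among 7 endothelial markers. It held 326, 1959, 1028, 1157 and 2212 in the 5 pH 6.5 libraries, 120.8 in pH 7.4 replicate 1 and 11.6, 123.7, 122 and 21.7 in the mixed libraries. The groups did not overlap, and CDH5 rose by 2.79 ± 0.47 (limma adjusted p = 0.00239), under all 6 settings. VWF, the clotting factor carrier of the same cells, averaged 129.7 at pH 6.5 against 143.9 in replicate 1, and ERG, their transcription factor, 15.4 against 31.9, and neither was called. CDH5, VWF and ERG were named after their values were seen.

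Matrix genes gave 4 rises and 11 falls among 50 (8% and 22%, against 3.77% and 13.1%), 3 and 7 of them under all 6 settings. The falls numbered 19 without pH 6.5 replicate 1 and also without pH 7.4 replicate 1, where 18.8% and 17.8% of all genes fell. MMP1 (ENSG00000196611), interstitial collagenase, held 586, 110.3, 123, 109 and 179 at pH 6.5, 3865 in replicate 1 and 172, 589, 434 and 211 in the mixed libraries. The mixed libraries lay above 21.0, 126, 95.1 and 51.9 expected, and the difference was −3.05 ± 0.49 (limma adjusted p = 0.00205). MMP10, another stromelysin, held 126, 54.8, 38.5, 20.9 and 76.2 against 499, a difference of −2.57 ± 0.40. BGN, the proteoglycan biglycan, was at 1.39 to 26.0 against 38.4 (−2.10 ± 0.54). Its mixed libraries held 6.84, 8.25, 12.6 and 8.88, all below pH 6.5 replicate 1. The call of this low gene was lost with pseudocount 8, by edgeR with the deposited scaling and without pH 7.4 replicates 2 and 5. LAMA1, the laminin chain of early basement membranes, rose by 1.38 ± 0.24, with 172, 151, 244, 273 and 180.0 against 54.9 (adjusted p = 0.00323).

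Among 40 genes of TGF-beta and BMP signalling, in a line without SMAD4, 2 rose and 7 fell (5% and 17.5%, against 3.77% and 13.1% of all genes), 3 of the falls under all 6 settings. The falls ranged from 3 without pH 7.4 replicate 4 to 13 without replicate 1 of either pH. LTBP2, which binds to matrix fibrils, held 2199, 670.3, 849, 940.0 and 895 at pH 6.5, 2254 in replicate 1 and 1806, 3599, 3499 and 2515 in the mixed libraries, a difference of −2.46 ± 0.37 (limma adjusted p = 0.00134). Its pH 6.5 replicate 1 was close to pH 7.4 replicate 1 and above mixed replicate 2. The receptor TGFBR2 held 1689 to 2092 against 2317 and 2888 to 3344 in the mixed libraries, a difference of −1.02 ± 0.16. NOG, which blocks BMP ligands, stood at 30.8 in replicate 1 and at 0 to 5.22 at pH 6.5 (−2.34 ± 0.64), and was not called in all settings or without pH 7.4 replicate 3 or 4.

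Wnt and Notch genes gave 5 rises and 9 falls among 43 (11.6% and 20.9%, against 3.77% and 13.1%), 3 and 5 under all 6 settings. Beside WNT5A, given above, the ligand WNT7A held 1420.0, 869, 811, 810.5 and 994 against 2155 and 395, 1648, 1591 and 897 in the mixed libraries, a difference of −1.70 ± 0.18 (limma adjusted p = 0.000229). The receptor FZD10 held 138, 79.8, 63.0, 94.0 and 68.5 against 338 (−1.71 ± 0.23), and the corepressor TLE4 held 105, 34.7, 27.1, 39.7 and 27.6 against 164 (−1.83 ± 0.32). The ligands WNT4 and WNT5B and the Notch target NRARP rose, and the receptor FZD2 fell, under all 6 settings too.

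Basal squamous genes gave 13 falls and 1 rise among 36 (36.1% and 2.78%, against 13.1% and 3.77%), with 5 and 1 under all 6 settings. SOX2 (ENSG00000181449), a stem cell factor often amplified in squamous carcinoma, held 71.8, 135, 47.2, 36.6 and 116 at pH 6.5, 335 in replicate 1 and 50.6, 179.6, 165 and 75.9 in the mixed libraries. Expected levels were 10.7, 47.5, 36.5 and 21.4, and the difference was −2.17 ± 0.31 (limma adjusted p = 0.00111). ITGA6, the integrin of hemidesmosomes, held 4229.9, 2075, 2089, 2189 and 2197 against 10219, with 6658, 7278, 7472 and 6152 in the mixed libraries, a difference of −1.26 ± 0.26 (adjusted p = 0.00618). KRT14, the basal keratin, held 34178, 10196, 15301, 15740.1 and 12047 against 41131, a difference of −1.12 ± 0.28 (adjusted p = 0.0151) that did not pass all settings, and with libraries as labelled it was higher at pH 6.5. PAX9, a transcription factor of the foregut and oral epithelium, was the rise, with 3009, 8440.2, 5725, 5354 and 7469 against 2223 and 347, 1100.2, 893 and 584 in the mixed libraries (1.33 ± 0.23, adjusted p = 0.00304). CD44 and BNC1 fell under all 6 settings.

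Genes of squamous differentiation gave 4 rises and 5 falls among 36 (11.1% and 13.9%, against 3.77% and 13.1% of all genes), 2 and 1 of them under all 6 settings, and 8 rises without pH 7.4 replicate 1. Beside KRT13, GRHL3, a transcription factor of barrier formation, rose. It held 44.8, 145, 71.7, 79.4 and 109 at pH 6.5 and 18.7 in replicate 1. HCT116 holds much more, at 551, so the mixed libraries were expected at 449, 222, 268 and 362 and held 43.8, 12.7, 13.3 and 20.7, which gave a difference of 3.46 ± 0.41 (limma adjusted p = 0.000443). With the fitted HCT116 part taken off, the FaDu part came to −4498, −280, −506 and −1397, which cannot be real levels. The size for GRHL3 therefore rests on an HCT116 profile that the mixed libraries do not follow, and against replicate 1 alone the difference was 2.21. S100A9, a calcium-binding protein of inflamed epithelium, held 174, 30.5, 48.1, 33.4 and 43.1 against 416 (−2.13 ± 0.50), and CSTA, a protease inhibitor of the cornified envelope, 2416, 889, 1164, 1121 and 1012 against 4922 (−1.27 ± 0.28, not in all settings). The list's median was 0.18 after correction and −0.20 against replicate 1, opposite in sign. KRT6A, KRT6B and KRT6C, which are near-identical, are uncertain one by one.

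Inflammatory genes gave 2 rises and 5 falls among 31 (6.45% and 16.1%, against 3.77% and 13.1%), 2 and 3 under all 6 settings, and 8 falls without pH 6.5 replicate 1. PTGS2, the inducible cyclooxygenase, held 283, 44.4, 94.5, 82.5 and 70.7 at pH 6.5, 950.1 in replicate 1 and 93.7, 445, 366 and 116 in the mixed libraries, a difference of −2.43 ± 0.47 (limma adjusted p = 0.0048). Its pH 6.5 replicate 1 exceeded mixed replicates 2 and 5, whose FaDu shares were 8.84% and 22.9%. IL24, a cytokine of the IL-10 family, held 6.94 to 35.4 against 59.3 (−2.53 ± 0.44). CCL20, a chemokine for cells that carry CCR6, held 345, 97.8, 289, 356 and 102 at pH 6.5 against 94.5 in replicate 1, and rose by 2.48 ± 0.60 (adjusted p = 0.0136).

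Of 51 interferon response genes, 4 rose and 4 fell (7.84% each, against 3.77% and 13.1%), and their count turned on single libraries. Without pH 6.5 replicate 1, 13 fell, where 18.8% of all genes did. Without pH 7.4 replicate 1, 11 rose, where 4.74% of all genes did. GBP2, an interferon-induced GTPase, held 1096, 1386, 1774, 1459 and 1927 at pH 6.5, 574 in replicate 1 and 108, 416, 223 and 235 in the mixed libraries, a rise of 1.33 ± 0.16 (limma adjusted p = 0.000507), and rose under all 6 settings with GBP1 and IFITM1. OASL, a sensor-related antiviral protein, held 5638, 993, 1250.1, 1309.7 and 832 against 9739.8 (−2.0 ± 0.47), and IFIT2 held 4519, 1182, 1583, 1493 and 1084 against 5885 (−1.71 ± 0.31), both lower at pH 6.5 but not in all settings. In both, pH 6.5 replicate 1 was the highest library of its group.

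Cell cycle genes gave 14 falls and no rise among 68 (20.6% lower, against 13.1% of all genes), with 5 falls under all 6 settings. FOXM1, the transcription factor of mitotic genes, held 7860.1, 5687, 5043, 5382 and 5083 at pH 6.5, 10101 in replicate 1 and 4408, 7452, 7745 and 5285 in the mixed libraries, where 2576, 4095, 3547 and 2926 was expected, a difference of −0.90 ± 0.12 (limma adjusted p = 0.000786). With libraries centred, 11 members fell. The spindle protein PRC1 held 4179 to 7629 against 9420.1 (−0.78 ± 0.16), and the mitotic kinase PLK1 3497 to 6759 against 7123 (−0.71 ± 0.15). CCND2, cyclin D2, fell most, with 2512, 106, 248, 208 and 118 against 3842 and 805, 4279.7, 3590.5 and 1764 in the mixed libraries (−4.63 ± 0.70). Of the pH 6.5 libraries, replicate 1 alone lay within the pH 7.4 range for CCND2. The list's median was −0.21 after correction and 0.12 against replicate 1, opposite in sign. Its falls numbered 23 without pH 6.5 replicate 1 and 35 without pH 7.4 replicate 1, where 18.8% and 17.8% of all genes fell.

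Heat shock and immediate early genes gave 7 rises and 1 fall among 37 (18.9% and 2.7%, against 3.77% and 13.1%), with 4 rises under all 6 settings (CRYAB, EGR2, DUSP1, NR4A1). When the HCT116 profile was the median and not the mean of its libraries, an alternative added after seeing the data, the rises numbered 4, and DUSP1, EGR2 and FOSL2 were no longer called. CRYAB, a small heat shock protein, held 25.0, 114, 122, 100.3 and 117 at pH 6.5, 11 in replicate 1 and 4.79, 5.71, 2.97 and 3.94 in the mixed libraries, a rise of 2.39 ± 0.51 (limma adjusted p = 0.0074). DUSP1, a phosphatase that shuts down MAP kinases, held 402, 371, 807, 746 and 461 at pH 6.5, 304 in replicate 1 and 335, 498, 518 and 369.8 in the mixed libraries. The groups overlapped as measured. HCT116 libraries at pH 7.4 ran from 376 to 5789 with a mean of 1552, so 1293, 799, 883 and 1089 was expected in the mixed libraries. The difference was 1.09 ± 0.29 (adjusted p = 0.0201), but 0.24 (adjusted p = 0.542) with the median HCT116 profile, since 1 HCT116 library carries the mean. HSPB1, the heat shock protein HSP27, rose by 0.62 ± 0.19, but not in all settings and not without any 1 of 7 libraries.

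Further lists held few calls. Among 28 p53 targets, GADD45A, a growth arrest gene, rose by 0.66 ± 0.10, with 3405, 3681, 4691, 4455 and 3614 against 2386, and 4 genes fell (14.3%, against 13.1%), of which MDM2, the ubiquitin ligase of p53, passed all 6 settings. The p53 target falls numbered 1 without pH 7.4 replicate 4 and 6 without pH 7.4 replicate 1. Among 35 autophagy genes 2 rose and 4 fell (5.71% and 11.4%), and 1 fell without any 1 of pH 6.5 replicates 3 to 5 or pH 7.4 replicates 3 and 4. MAP1LC3A, a membrane tag of autophagosomes, held 27.1, 45.8, 69.1, 58.5 and 60.8 against 9.89 and rose by 1.75 ± 0.32 (limma adjusted p = 0.00346). Among 30 sirtuins, deacetylases and acetyltransferases 1 rose and 4 fell (3.33% and 13.3%), and the acetyltransferase EP300 held 8697, 10083, 7915, 8729 and 9314 against 11513 (−0.57 ± 0.09) under all 6 settings. SIRT2 was at 1289 to 1550.2 against 1059 (0.28 ± 0.09), lost without any 1 of 8 libraries. In a list of 7 genes tied to the glucose sensor MondoA, ARRDC4, an arrestin-like protein, held 712, 847, 699.9, 821 and 843 against 298 and 146, 259.5, 177 and 189, a rise of 1.13 ± 0.12 (adjusted p = 0.000195). MLX, the partner of MondoA, fell (−0.35 ± 0.08). The target TXNIP was not matched to an identifier and so was not tested. Of 14 thyroid hormone and steroid genes, DIO2 and UGT1A6 rose, the latter by 2.87 ± 0.55 and sharing exons with other UGT1A genes, and the thyroid receptor THRA fell (−0.33 ± 0.11), a call lost without any 1 of 8 libraries.

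**Figure D5:**
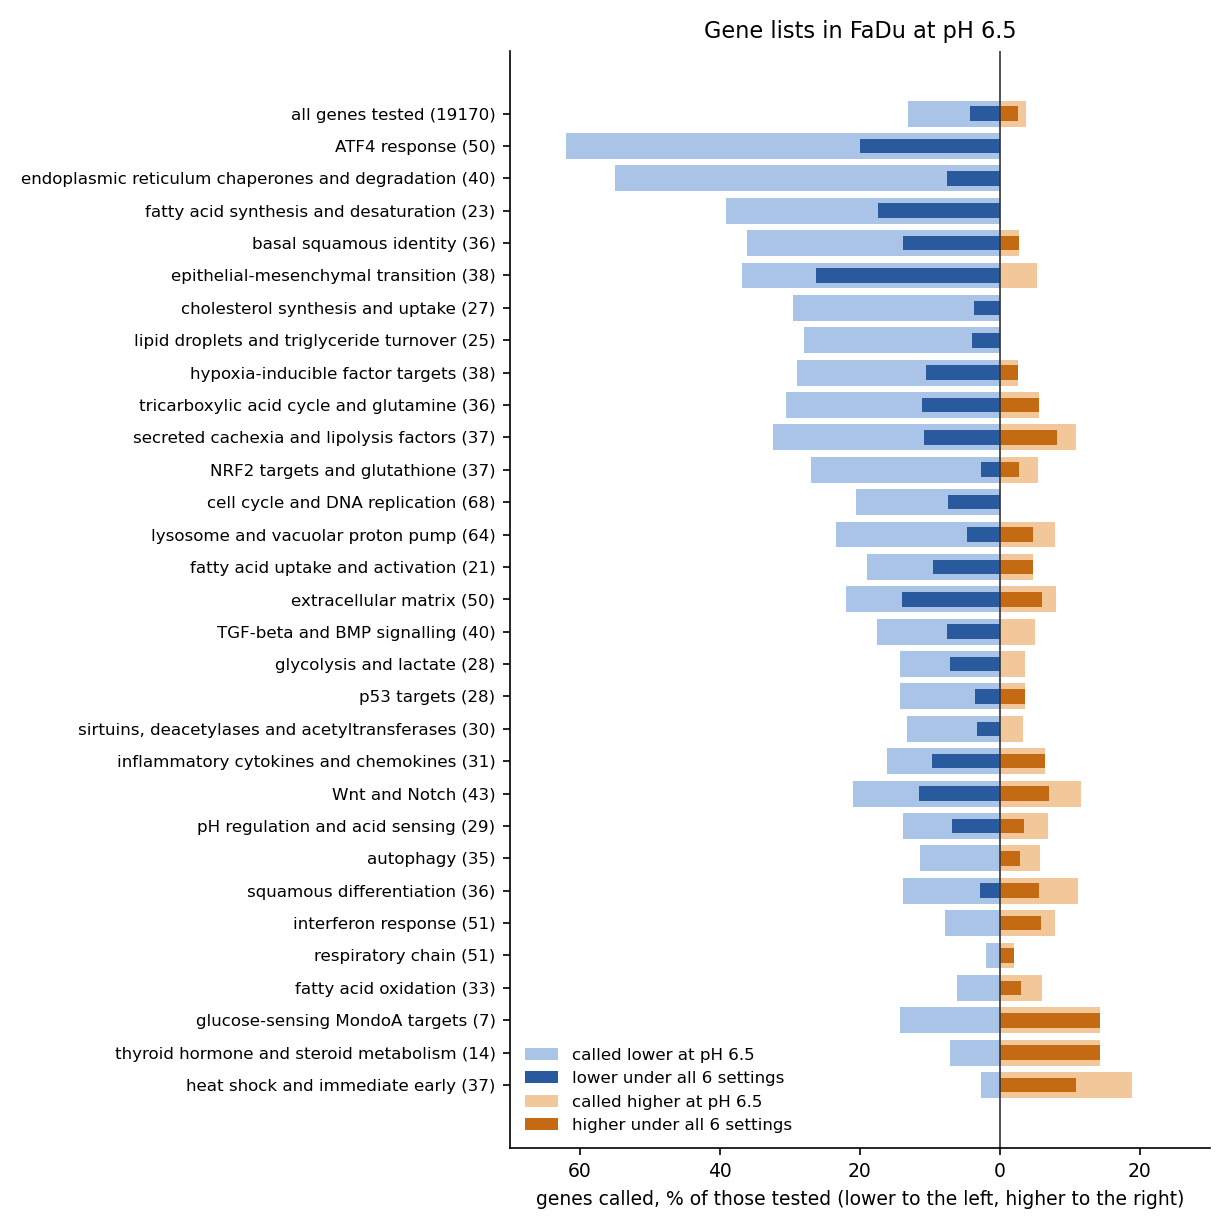
Share of the tested genes of each list (number tested in brackets) called lower (left, blue) or higher (right, orange) at pH 6.5, with the part called under all 6 settings in dark. The top bar is all 19170 genes tested, at 13.1% lower and 3.77% higher; the ATF4 list has the longest bar to the left and heat shock and immediate early genes the longest to the right.

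The pH 6.5 libraries were also compared among themselves. Over 12660 genes with a mean of at least 100, the median SD of log2 values was 0.17, and 0.11 without replicate 1. Of 76 genes with an SD of at least 1, replicate 1 was the lowest library in 36 and the highest in 40, so it was an extreme in each. The most variable were DMBT1, MUC16, DPYSL3, LTB, MX2, CCND2, RSAD2 and HMCN1. MUC16, the mucin that carries the marker CA125, held 4.16, 261, 49.0, 91.9 and 171, and HMCN1, a large matrix protein, held 13.5, 229, 51.6, 43.9 and 257. Both were lowest in replicate 1. LTB, a lymphotoxin, held 1644, 40.9, 247, 358 and 166, and MX2 and RSAD2, interferon-induced antiviral proteins, held 1746, 95.8, 259, 299.7 and 58.5 and 1275, 59.0, 122, 111 and 67.4. These 3 were highest in replicate 1. In MX2 and LTB replicate 1 at pH 6.5 exceeded pH 7.4 replicate 1, at 401 and 556.

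The pH effect in FaDu was compared with that in SiHa, which shares no control library with it, by the interaction in 1 limma fit over 20 libraries. It was more positive in FaDu for 2186 of 19170 genes (11.4%) and more negative for 3889 (20.3%). Of these, 278 and 527 were genes called in FaDu under all 6 settings. TMPRSS2, a serine protease of epithelial surfaces, held 55.2, 369.9, 143, 152 and 252 in FaDu at pH 6.5 and 29.7 in replicate 1. In SiHa its lowest, median and highest values were 0, 0.897 and 1.40 at pH 6.5 and 15.8, 16.4 and 48.9 at pH 7.4. It rose in FaDu, the difference in SiHa was −3.99 ± 0.48, and the effects differed by 7.80 ± 0.69 (adjusted p = 1.59e-07). H19 had 51.8, 70.1 and 122 at pH 6.5 and 381, 429.8 and 531 at pH 7.4 in SiHa, a difference between lines of 7.57 ± 0.72. The hedgehog receptor relative PTCHD1 and MATK followed, with differences of 7.14 ± 0.69 and 7.12 ± 0.55 (adjusted p = 5.22e-07 and 4.37e-08).

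In the other direction SERPINA1, the inhibitor of neutrophil elastase, held 1251, 61.8, 143, 109 and 89.5 in FaDu at pH 6.5, 1418 in replicate 1 and 369, 1101, 816 and 464 in the mixed libraries. SiHa held 371, 399 and 808 at pH 6.5 and 9.36, 22.6 and 160.2 at pH 7.4. In FaDu pH 6.5 replicate 1 lay among the pH 7.4 libraries and the other 4 below them. The gene fell in FaDu, though not by edgeR with the deposited scaling or by DESeq2, the difference in SiHa was 4.14 ± 0.66, and the effects differed by −7.30 ± 0.93 (limma adjusted p = 1.21e-05). APLN, the peptide apelin, held 81.2, 18.0, 19.2, 34.5 and 19.9 at pH 6.5 in FaDu, 89.0 in replicate 1 and 269.6, 531, 623 and 308 in the mixed libraries. HCT116 averaged 14.8, so 14.9, 24.2, 20.9 and 17.1 was expected in the mixed libraries with no change. These libraries exceeded replicate 1 and the highest HCT116 library, at 21.1, which no mixture of these levels gives. SiHa held 29.4, 62.0 and 74.3 at pH 6.5 and 8.34, 16.3 and 18.9 at pH 7.4, a difference between lines of −5.90 ± 0.72. MMP3, DMBT1 and CDH11 differed by −6.59 ± 1.04, −6.47 ± 1.41 and −6.02 ± 1.46. Without SiHa pH 7.4 replicates 6 and 7 these differences had the same sign.

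Some of the largest differences with the libraries as labelled were not called after the correction. NTSR1, HTR7 and BMP4, receptors for neurotensin and serotonin and a BMP ligand, were lower at pH 6.5, with differences of −7.91, −8.09 and −7.15 as labelled. NTSR1 held 8122, 1964, 3568 and 3389 in the mixed libraries against 8434, 3276, 4381 and 6517 expected from HCT116, and its corrected difference was −0.34 ± 0.68 (limma adjusted p = 0.765). HTR7 gave −1.22 ± 1.01 and BMP4 −0.30 ± 0.82, and MIR100HG and SDR42E1, a miRNA host transcript and a dehydrogenase relative, gave −1.90 ± 1.01 and −1.92 ± 0.88 (adjusted p = 0.209 and 0.145). Replicate 1 also lay above every pH 6.5 library for NTSR1, HTR7 and BMP4, at 61.5, 83.5 and 105. Among genes higher as labelled, IFI44L, an interferon-induced gene, held 9729.8, 1825, 4995, 5848 and 1607 at pH 6.5, 1943 in replicate 1 and 2.74, 239.8, 79.3 and 49.3 in the mixed libraries. Replicate 1 lay inside the range of the pH 6.5 libraries, so the gene was not called, although the corrected difference was 3.83 ± 0.84. IFI27, another of these genes, gave 2.0 ± 0.68 (adjusted p = 0.0583). The troponin TNNT3 and the Wnt inhibitor APCDD1 were left out in the same way, with 263 and 419 in replicate 1 against 256 to 2109 and 346 to 1265. INHBB, an activin subunit, ran from 34.4 to 667 against 8.79 in replicate 1, and its corrected difference of 2.38 ± 0.84 (adjusted p = 0.0647) did not pass.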

How the data were processed

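Total RNA of 30 libraries was sequenced, 5 each of 3 lines at 2 pH values. Per the submitters' processing notes, bcl2fastq 2.20, FastQC, Trimmomatic 0.38, STAR 2.6.1d, GRCh37 and DESeq2 1.22.2 were used. Which counting program, strand setting and annotation served is not stated there or in the labels. The deposited signal values are the authors' read counts per gene divided by library size factors. In the deposited table, 100% of values came back as whole reads (tolerance 0.01 read) once the step of each library was known, and the FaDu libraries held 31.6 to 55.7 M reads. 1 HCT116 column had a step of its own and was used for its level only, not in the count tests. Of 38122 gene identifiers 35466 had a symbol. Genes with near-identical copies, overlapping genes and antisense partners are uncertain one by one.

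The main test was limma with an intensity trend (2-sided, Benjamini-Hochberg over 19170 genes) on log2(value + 1), which understates the change of low genes; a gene needed a mean of at least 10 at pH 6.5 or 10 in pH 7.4 replicate 1. Shares came from genes at 100 or more in one line and at most 1% of that in the other, with FaDu genes within 1.5-fold between pH 6.5 and replicate 1; this choice sets genes of large change aside. With the FaDu share a and the HCT116 share b of a mixed library, F the mean FaDu level at pH 6.5 and H the mean HCT116 level at pH 7.4, the log2 of (aF + bH + 1)/(F + 1) was taken off. In replicate 1, a was set to 1 and b to 0. The members and the gene lists were chosen with earlier results of these data known. Named genes were the 12 of largest size in each direction at a level of at least 100, up to 4 called members of each of 30 lists, all called secreted factors, 5 in each direction called as labelled but not after correction, 5 in each direction for FaDu minus SiHa and the 8 of largest spread within pH 6.5, size being the smaller of the corrected difference and that from replicate 1; clone-named and LINC genes, genes without a symbol and genes of the sex chromosome checks were passed over. Results of some genes picked by it are left out here, though all counts include them.

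The procedure was tested on simulated data of 18848 genes for this comparison: 48% of 2-fold and 92% of 4-fold rises, 76% of 2-fold and 98% of 4-fold falls and 0.00536% of unchanged genes were called, against 7.27% of unchanged genes with libraries as labelled. The simulation used the fitted HCT116 shares with FaDu RNA as the rest, so it does not cover an error in the shares. In the mixed libraries the fitted FaDu and HCT116 shares together fell short of the whole, which the simulation did not include. Its percentages therefore describe the simulated mixtures, and whether they hold for the deposited libraries was not tested. edgeR's quasi-likelihood test on the recovered reads with the same correction called 770 rises and 2447 falls with the deposited scaling and 597 and 3386 with TMM, and DESeq2 called 928 and 2842. Promoters are RefSeq's on GRCh38.p14, matched by symbol; no coordinates of the submitters' GRCh37 were used. R 4.3.3, limma 3.58.1, edgeR 4.0.16, DESeq2 1.42.0, Python 3.11.15, numpy 2.4.6, pandas 2.3.3 and matplotlib 3.10.9 were used.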

Additional observations from a re-analysis of the deposited data

Results flagged for a closer look

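In groups of 5 libraries, a library was singled out where its gap to the nearest other exceeded 71% of the group's range, which chance gives in about 1 of 20 groups. Replicate 1 at pH 7.4, the unmixed library, stood apart from the mixed ones in CCDC80 (554.7 normalised counts), CCN5 (19.8), DIO2 (247), FGF21 (60.4), H19 (9496), IGFBP3 (3512), MYL7 (7.69), PNLIPRP3 (443), STC2 (12898) and TMEM52B (57.1).

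Replicate 1 at pH 6.5 stood apart from the other 4 in CDH11 (219), CDYL2 (194), COL5A3 (77.0), DMBT1 (495), DPYSL3 (1680.3), EYA1 (33.3), GHR (40.6), MMP3 (128), NCAM1 (14.6), PALMD (35.4), STC1 (122), STC2 (2536) and WNT5A (11.5). In each of these but PALMD it was the highest library and lay towards pH 7.4 replicate 1, and in PALMD it was the lowest and also lay towards pH 7.4.

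For 9 genes the pH effect differed between FaDu and SiHa by the limma interaction test. On the log2 scale, FaDu minus SiHa, the differences were 7.80 for TMPRSS2, 7.57 for H19, 7.14 for PTCHD1, 7.12 for MATK, −7.30 for SERPINA1, −6.59 for MMP3, −6.47 for DMBT1, −6.02 for CDH11 and −5.90 for APLN.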

How the results depend on the processing

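Of 142 called genes named in the report, 47 were called against pH 7.4 replicate 1 alone, 96 with libraries as labelled, 113 without pH 7.4 replicate 4, 138 with the median HCT116 profile (lost for ATG16L1, CA11, DUSP1 and PDK4), 141 without pH 6.5 replicate 1 and all 142 with the replicate block; over 26 alternatives their values gave 3210 calls of the same direction, 465 losses and 16 changes of sign. With libraries as labelled the sign changed for AGPAT1 (0.31), AGPAT3 (0.18), CA11 (−0.10), CBR1 (0.71), CRELD2 (0.0042), CSTA (0.14), EP300 (0.14), GPX2 (0.78), IL1A (0.074), KRT14 (0.41), PDGFA (0.20), PDK4 (−1.23), PPARA (0.41) and SREBF2 (0.058), with an HCT116 profile from pH 6.5 for DUSP5 (−0.0033) and TP53I3 (0.059), and for MUC16 (4.48), which was not called, against replicate 1 alone without pH 6.5 replicate 1.

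The 723 rises became 2854 with libraries as labelled and replicate 1 still asked to agree, 2007 with the FaDu share as 1 minus the HCT116 share, 1224 with the HCT116 pH 6.5 profile, 1158 with libraries centred and 3430 against replicate 1 alone without pH 6.5 replicate 1. Leaving out single libraries gave 481 to 1227 rises, the lowest without pH 6.5 replicate 3. The 2518 falls became 599 against replicate 1 alone, 4043 and 1556 with the lower and upper quartile of the HCT116 share, 960 with the FaDu share as 1 minus the HCT116 share, 1403 with libraries centred and 829 under all 6 settings, and 1654 to 3627 with single libraries left out. The FaDu-minus-SiHa rises were 4399 as labelled in place of 2186, and 1847 rises and 3390 falls without SiHa pH 7.4 replicates 6 and 7. The median SD at pH 6.5 was 0.11 to 0.18 with single libraries left out. The cause was not tested.

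The replicate number as a block gave 1076 rises and 2900 falls. Same-numbered libraries correlated at 0.0743 to 0.336, over 0.1 in 4 of 5 pairs, and 3 of 5 pH 7.4 libraries correlated best with their own number. Since the labels name no shared source and pairing was to be accepted only with all 5 over 0.1, the block was not made the main comparison. Alternatives added after seeing the data were the joint call under 6 settings, the 4-against-1 comparison, the fit without pH 7.4 replicates 2 and 5, the median HCT116 profile (703 rises and 2585 falls) and those of the spread. Depth limits genes near 3 reads.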
